A study of Homo sapiens with 6 samples.

Results

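The thyroid lineage factors and hormone synthesis genes were examined in TPC1, an established cell line of papillary thyroid cancer. They are the 9 genes PAX8, NKX2-1, FOXE1, HHEX, GLIS3, TG, TSHR, SLC5A5 and DIO2, chosen by name from the 58735 genes of the deposited table. RNA was sequenced from 6 libraries of transfected cells: 3 received si-circ_0000839, an siRNA that targets hsa_circ_0000839, a circular RNA, and 3 received a negative-control siRNA (NC). Both groups grew in DMEM with 10% FPS, an abbreviation the labels do not spell out, and were collected 60 h after transfection. The circular RNA was not matched to a row of the table, so its depletion was not checked here. TPC1 is 1 line, and no label states separate cultures for the 3 libraries of each group; the p-values therefore reflect only library-to-library spread, which may be technical.

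A thyroid follicular cell is set apart by the joint presence of the transcription factors PAX8, NKX2-1, FOXE1 and HHEX, none of which is restricted to the thyroid on its own. GLIS3 is a zinc finger factor needed for thyroid hormone production. These factors act on genes of hormone synthesis: the TSH receptor TSHR drives cAMP signalling, the sodium/iodide symporter SLC5A5 brings iodide into the cell, thyroglobulin (TG) is the protein scaffold on which hormone is made, and the deiodinase DIO2 converts the prohormone T4 to active T3. Loss of the synthesis genes is a known mark of dedifferentiated thyroid cancer.

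The 9 genes fell into separate layers. PAX8 was abundant, FOXE1 moderate, HHEX and GLIS3 low, TG close to the detection limit, and DIO2, NKX2-1, TSHR and SLC5A5 had 0 reads in all or nearly all libraries. Of the 4 genes with enough signal for a test, 0 passed the threshold (limma, adjusted p under 0.05) after si-circ_0000839, and 0.384% of all 10674 tested genes did. Levels are in FPKM, fragment counts scaled by gene length and by a total per library, so that genes of different length can be compared. The libraries held 18399558 to 19334633 reads recovered from the FPKM values. NC replicate 2 and si-circ_0000839 replicate 1 stood apart by base composition, and with both left out 0 of the 4 genes passed as well. In bulk RNA, fewer cells with a transcript and less of it per cell cannot be told apart.

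The stretches upstream of the annotated starts of 4 of these genes are printed to show the sequence ahead of 2 genes with many reads, PAX8 and FOXE1, and of 2 genes with 0 or 2 reads in all, SLC5A5 and DIO2. They come from RefSeq promoter windows on GRCh38.p14, cut to the 250 bases before the start and to the part outside annotated exons of the gene and annotated untranslated regions. They are chr2:113278951-113279171 (PAX8, minus strand), chr9:97852976-97853225 (FOXE1, plus strand), chr19:17871695-17871944 (SLC5A5, plus strand) and chr14:80212179-80212428 (DIO2, minus strand, the upstream one of its 2 starts). The DIO2 stretch precedes a RefSeq start but lies inside the span of DIO2 in the deposited table, 80197527 to 80387757. It also lies inside the span of DIO2-AS1, on the opposite strand. Each stretch reads 5′ to 3′, and capitals mark the CpG dinucleotides.
PAX8: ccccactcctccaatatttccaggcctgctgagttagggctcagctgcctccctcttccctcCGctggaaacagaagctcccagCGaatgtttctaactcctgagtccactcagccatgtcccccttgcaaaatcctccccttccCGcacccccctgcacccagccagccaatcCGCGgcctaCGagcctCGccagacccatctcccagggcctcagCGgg
FOXE1: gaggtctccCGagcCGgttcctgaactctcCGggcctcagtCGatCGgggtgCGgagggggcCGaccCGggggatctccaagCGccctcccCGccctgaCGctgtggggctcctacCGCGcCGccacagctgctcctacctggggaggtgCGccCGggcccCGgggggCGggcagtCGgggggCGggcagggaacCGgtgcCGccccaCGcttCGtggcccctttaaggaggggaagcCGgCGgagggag
SLC5A5: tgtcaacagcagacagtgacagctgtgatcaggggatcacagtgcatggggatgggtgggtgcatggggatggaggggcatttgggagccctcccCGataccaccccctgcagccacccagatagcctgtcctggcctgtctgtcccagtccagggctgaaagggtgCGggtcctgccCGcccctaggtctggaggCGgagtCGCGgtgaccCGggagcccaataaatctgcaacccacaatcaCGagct
DIO2: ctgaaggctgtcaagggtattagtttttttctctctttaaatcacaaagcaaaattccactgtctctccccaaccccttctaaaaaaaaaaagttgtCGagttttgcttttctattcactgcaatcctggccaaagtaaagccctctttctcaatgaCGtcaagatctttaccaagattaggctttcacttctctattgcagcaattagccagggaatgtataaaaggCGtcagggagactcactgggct

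CpG dinucleotides numbered 26 in the 250 bases upstream of FOXE1, 38 for HHEX, 11 for PAX8, and 21 and 2 for the 2 starts of GLIS3. The genes without reads had 8 for SLC5A5, 7 for TSHR, and 18 and 7 for the 2 starts of NKX2-1, and DIO2 had 1 and 3. The median over 35116 windows of all genes was 11, so PAX8 stood at that median, and the counts of genes with and without reads overlapped. The cyclic AMP response element TGACGTCA, searched on both strands, was found in 1.65% of all windows and among the windows of these genes only in the DIO2 window printed above, where it starts 96 bases before the start. TATAAA, the letters of the TATA box, was in 10.7% of all windows. It began 31 bases before the start printed for DIO2 and 104 bases before the first start of GLIS3. CCAAT, the letters of the CCAAT box, was in 32.0% of all windows. It occurred at PAX8, at HHEX and, 31 bases before the start, at SLC5A5. CTCAAG, letters found in NKX2-1 binding sites, was in 10.4% of all windows and in none of these 11. There was no TG window to search. A match describes the letters of the window and no binding was measured.

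PAX8 (ENSG00000125618, paired box 8) lies on chromosome 2 from 113215997 to 113278950, minus strand, in the GRCh38 coordinates of the deposited table. Its level was 93.8, 98.2 and 95.5 FPKM in NC replicates 1, 2 and 3, and 102, 91.2 and 96.0 FPKM in si-circ_0000839 replicates 1, 2 and 3. The si-circ_0000839 group thus held both the highest and the lowest library, and the groups overlapped. The group means were 95.8 ± 2.21 FPKM in NC and 96.3 ± 5.26 after si-circ_0000839 (SD, n = 3 each), with 13079 to 13800 reads per library. The log2 change of FPKM + 1 was 0.0057 (SE 0.07, 95% interval -0.15 to 0.16, limma adjusted p = 0.981), and at the ends of this interval the level would be 0.903 and 1.12 times that of NC.

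Among 1553 genes that the deposited table assigns to a transcription factor family, PAX8 ranked 10th by mean FPKM, behind HMGA1, YBX1, CNBP, FOSL1, ID1, SLC2A4RG, ATF4, MYBL2 and CEBPD. The median of the 627 such genes averaging 1 FPKM or more was 4.05 FPKM, and 304 had 0 reads. Of the 9 PAX genes, PAX8 and PAX2, a paralog active in kidney development, were the 2 with a 6-library mean of 1 FPKM or more, and PAX6, an eye and brain factor, lay just under it at 0.997 FPKM (356 to 430 reads per library). PAX2 was at 4.76 ± 0.614 FPKM after si-circ_0000839 and 4.36 ± 0.294 in NC (adjusted p = 0.710), and PAX5, the B cell paralog, had 7 to 20 reads per library.

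**Figure D1:**
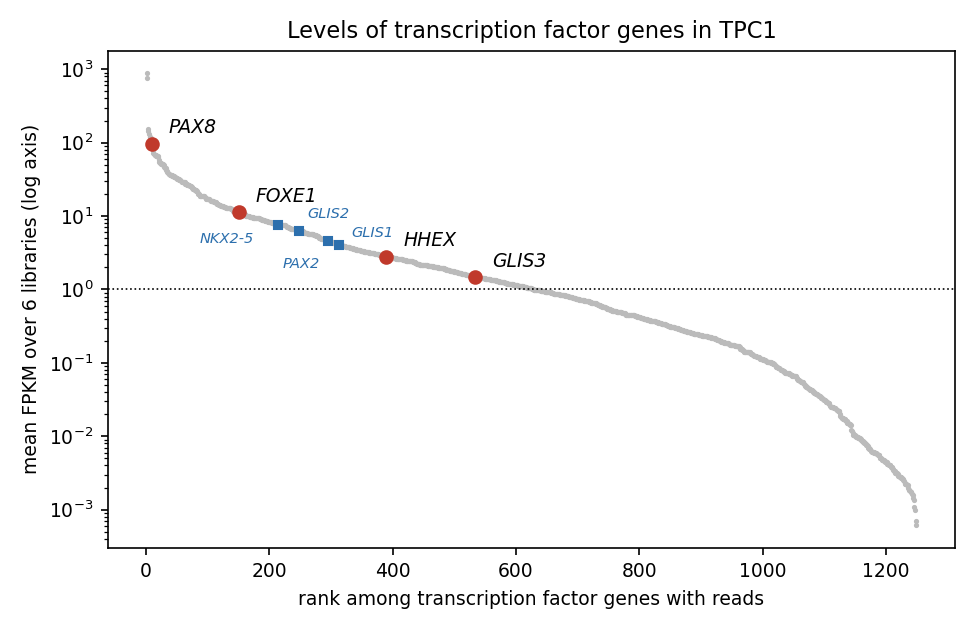
Mean FPKM over the 6 libraries (log axis) against rank for all transcription factor genes with reads. Circles mark the 4 lineage factors with reads, from PAX8 at rank 10 down to GLIS3 at rank 534, squares mark paralogs, and the dotted line is 1 FPKM; NKX2-1, with 0 reads, is not on the axis.

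FOXE1 (ENSG00000178919, chromosome 9, 97853254 to 97856715, plus strand), a forkhead factor needed for thyroid migration in the embryo, was at 11.1, 10.2 and 11.4 FPKM in NC replicates 1, 2 and 3. After si-circ_0000839 it was at 12.6, 10.8 and 11.4 FPKM. The si-circ_0000839 replicate 1 was highest, replicate 3 stood level with NC replicate 3, and replicate 2 lay below 2 of the NC libraries, so the groups overlapped. The means were 10.9 ± 0.597 and 11.6 ± 0.906 FPKM, on 645 to 797 reads per library, with a log2 change of 0.08 (SE 0.08, 95% interval -0.10 to 0.25, adjusted p = 0.735). The change was 0.02 without si-circ_0000839 replicate 1, 0.04 without NC replicate 2, and -0.02 without both. FOXE1 ranked 151st among the transcription factor genes and 4th among the 49 FOX genes, after FOXM1, FOXP4 and FOXF2. PTCSC2, a long non-coding RNA gene on the opposite strand, starts 173 bases before FOXE1 and runs away from it. It had 25 reads in all 6 libraries together, against 4398 for FOXE1. Part of the FOXE1 stretch printed above lies within the span of PTCSC2.

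HHEX (ENSG00000152804, chromosome 10, 92689951 to 92695646, plus strand), a homeobox factor of the early thyroid and of blood cells, had NC levels of 2.35, 2.72 and 2.83 FPKM. With si-circ_0000839 the levels were 2.85, 3.26 and 2.69 FPKM. The lowest value was NC replicate 1 and the highest si-circ_0000839 replicate 2, while si-circ_0000839 replicate 3 lay below 2 of the NC libraries. It rested on 115 to 162 reads per library, so counting error is a larger part of its spread than for PAX8. The log2 change was 0.11 (SE 0.09, 95% interval -0.09 to 0.31, adjusted p = 0.652), and it was 0.06 when either si-circ_0000839 replicate 2 or NC replicate 1 was omitted.

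GLIS3 (ENSG00000107249, chromosome 9, 3824127 to 4348392, minus strand) was at 1.44, 0.991 and 1.501 FPKM in NC replicates 1, 2 and 3. After si-circ_0000839 it was at 1.66, 1.66 and 1.58 FPKM. All 3 si-circ_0000839 libraries lay above all 3 NC libraries, which made GLIS3 the 1 gene of the 4 whose groups did not overlap, as in 18.1% of all 10674 tested genes. The difference did not pass the threshold: the means were 1.31 ± 0.279 and 1.63 ± 0.0496 FPKM, with a log2 change of 0.20 (SE 0.10, 95% interval -0.03 to 0.42, unadjusted p = 0.0862, limma adjusted p = 0.471). NC replicate 2, with 213 GLIS3 reads against 331 to 387 in the other 5 libraries, set much of its size, and without that library the log2 change was 0.09 (adjusted p = 0.627), and 0.08 without si-circ_0000839 replicate 1 in addition. On the recovered reads, limma's voom gave a log2 change of 0.33, which is not compressed by the added 1 FPKM, and an adjusted p of 0.295. GLIS1 and GLIS2, the 2 paralogs, were more abundant than GLIS3, at 4.05 and 6.34 FPKM over the 6 libraries, and did not pass either (adjusted p = 0.603 and 0.743); GLIS2 shares positions with PAM16 on the other strand.

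NC replicate 2 and si-circ_0000839 replicate 1 differed from the other libraries across genes by base composition. With the tested genes in 5 equal classes of GC content, these libraries lay above the gene means in the class of highest GC by 0.08 and 0.11 on the log2(FPKM + 1) scale, and the other 4 libraries lay between -0.07 and -0.01. PAX8, in class 4 with a GC content of 57.0%, also had its highest values there, at 0.08 above its mean in si-circ_0000839 replicate 1, 0.03 in NC replicate 2 and -0.07 in si-circ_0000839 replicate 2. FOXE1, with a GC content of 60.9%, had its lowest level in NC replicate 2, against the direction of its GC class there. With a trend on GC content and length removed from each library, PAX8 had a log2 change of -0.05 (adjusted p = 0.488), FOXE1 0.05, HHEX 0.13 and GLIS3 0.14, and 0 of the 4 passed.

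**Figure D2:**
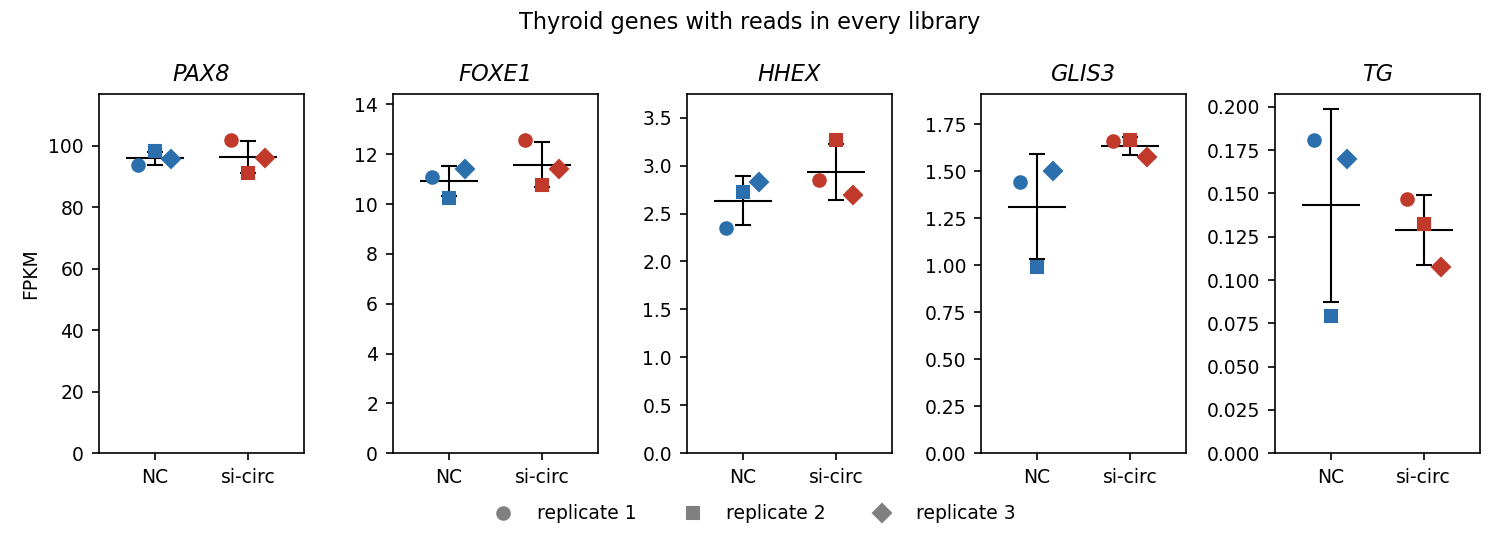
FPKM of the 5 thyroid genes with reads in every library, by group (NC and si-circ_0000839), on axes that start at 0; symbols are the replicates, bars the mean ± SD (n = 3). PAX8, FOXE1, HHEX and TG overlap between groups, and GLIS3 is lowest in NC replicate 2 at 0.991 FPKM.

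NKX2-1 (ENSG00000136352, chromosome 14, 36516392 to 36521149, minus strand), the homeobox factor also known as TTF-1, had 0 reads in each of the 6 libraries. A count of 3 reads, the upper limit that 0 allows for counting error, would be 0.0482 to 0.0521 FPKM, depending on the library. NKX2-1-AS1 and the other 2 non-coding genes that share positions with NKX2-1 had 0 reads as well. In GENCODE 29, 402 of its 3165 exon bases lie in exons of such genes and 2763 do not. How reads in shared exons were counted is not given, so a value of 0 is the deposited count and not proof that the transcript is lacking. Of the 7 NKX2 genes, 1 had a 6-library mean above 1 FPKM: NKX2-5, known from the heart, at 7.69 ± 1.16 FPKM after si-circ_0000839 and 7.56 ± 0.416 in NC (adjusted p = 0.969), and 4 had 0 reads.

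The order of the levels was the same in each library: PAX8, FOXE1, HHEX, GLIS3, TG and then the genes at or near 0. No neighbours from PAX8 to TG overlapped over the 6 libraries, and the closest were HHEX, never below 2.35 FPKM, and GLIS3, never above 1.66. The ratio of PAX8 to FOXE1 within a library was 8.10 to 8.47 in 5 libraries and 9.58 in NC replicate 2. The ratio of HHEX to GLIS3 was 1.63 to 1.96 in the same 5 libraries and 2.75 in NC replicate 2.

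TG (ENSG00000042832, chromosome 8, 132866958 to 133134903, plus strand), which encodes thyroglobulin, was detected at a trace in every library. NC replicates 1, 2 and 3 read 0.181, 0.0791 and 0.170 FPKM, and those of si-circ_0000839 read 0.147, 0.132 and 0.107 FPKM. These values rest on 39, 16 and 36 reads in NC and 30, 29 and 22 after si-circ_0000839, above the 3 reads that 0 would allow. NC held both the highest and the lowest library, and the groups overlapped. TG lay under the minimum of 1 FPKM for the test. In limma's voom on all genes with at least 3 recovered reads its log2 change was -0.08 (adjusted p = 0.954). Without NC replicate 2 the NC mean was 0.175 FPKM, against 0.143 with it. SLA, an adaptor gene inside TG on the opposite strand, had 65 reads in all against 172 for TG, and shares no exon bases with it in GENCODE 29.

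TSHR (ENSG00000165409, chromosome 14, 80954989 to 81146302, plus strand) and SLC5A5 (ENSG00000105641, chromosome 19, 17871973 to 17895174, plus strand) had 0 reads in all 6 libraries. The limits that 3 reads give were 0.0154 to 0.0167 FPKM for TSHR and 0.0418 to 0.0452 FPKM for SLC5A5. CEP128, a centriole gene on the opposite strand that overlaps the start of TSHR, had 292 reads in all at 0.278 ± 0.0502 FPKM after si-circ_0000839 and 0.269 ± 0.0753 in NC. DIO2 (ENSG00000211448, chromosome 14, 80197527 to 80387757, minus strand) had 2 reads in si-circ_0000839 replicate 3, or 0.0145 FPKM, and 0 in the other 5 libraries, which is under the limit of 3 reads. No fold is given for these genes, since both groups were at or under that limit. No difference was detected in any of them, and at this depth a difference under these limits could not be seen.

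The reads of the other hormone synthesis genes were as scarce. Of 13 genes of iodide handling and hormone synthesis, TG and SLC5A5 included, 0 reached 1 FPKM, 4 had 0 reads throughout, and the sum over all 13 was 0.296 to 0.483 FPKM after si-circ_0000839 and 0.372 to 0.517 in NC. IYD, which recycles iodide, and the maturation factor DUOXA2 had 0 reads. DUOX1, a hydrogen peroxide generating oxidase, had 6 to 19 reads per library and DUOX2 up to 2. Pendrin (SLC26A4), an anion exchanger of the apical membrane, had 1, 3 and 7 reads after si-circ_0000839 and 1, 1 and 0 in NC.

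Genes with general roles that the pathway borrows were well expressed. Of 15 genes of thyroglobulin folding and proteolysis 12 were tested, 0 rose or fell past the threshold, and the median log2 change was 0.04 against 0.0057 for all tested genes. CALR, HSPA5 and CTSB, a chaperone pair of the endoplasmic reticulum and a lysosomal protease, were at 648, 297 and 298 FPKM in NC. LGMN, a lysosomal protease also called legumain, came closest to a call, with no overlap between groups: its NC libraries lay at or under 7.34 FPKM, and the si-circ_0000839 libraries read 9.75, 8.93 and 8.82 FPKM. Its log2 change was 0.32 (SE 0.07, adjusted p = 0.103), and it passed when protein-coding genes alone were fitted (adjusted p = 0.0492) and with the GC and length trend removed (adjusted p = 0.0329). LRP2, the receptor for thyroglobulin uptake, had 1 read in all.

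**Figure D3:**
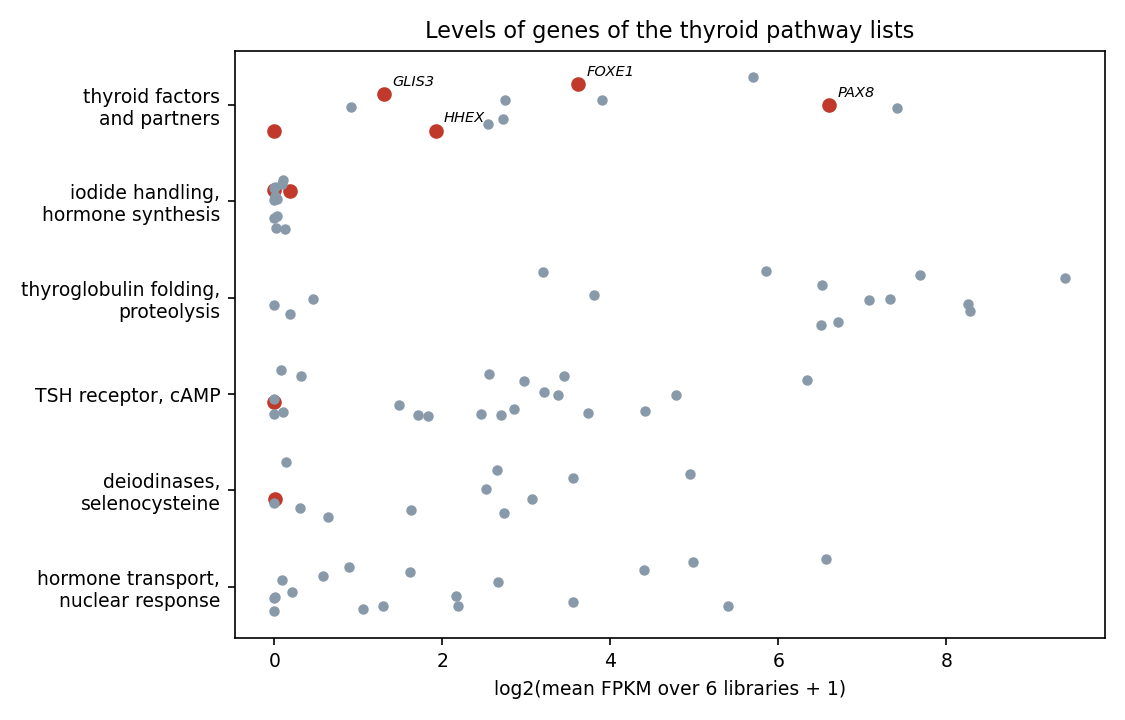
Level of each gene of 6 thyroid pathway lists as log2 of the mean FPKM over 6 libraries plus 1, with large points for the 9 thyroid genes described here and small points for the others. All 13 genes of iodide handling and hormone synthesis lie near 0, while 12 of 15 folding and proteolysis genes lie above 1 FPKM.

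Downstream of the TSH receptor most of the listed signalling genes were present. PDE4B, PDE4D and PDE8B lay under the minimum, at 0.0717, 0.240 and 0.0577 FPKM over the 6 libraries. Of 21 genes of TSH receptor and cAMP signalling 15 were tested and 0 passed, with a median log2 change of -0.0048. GNAS, the stimulatory G protein subunit that TSHR uses, was at 82.7 ± 5.12 FPKM after si-circ_0000839 and 77.6 ± 3.16 in NC (adjusted p = 0.658). ADCY9, an adenylyl cyclase, had the smallest p of the list, at 5.19 ± 0.393 against 4.54 ± 0.228 FPKM (adjusted p = 0.444). The hormone subunit genes GPHA2 and GPHB5 had 0 reads.

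The listed partners of the lineage factors were expressed at 1 FPKM or more, except KCNIP3, at 0.881 FPKM over the 6 libraries. In the list of 12 thyroid transcription factors and partners 10 were tested and 0 passed. WWTR1, the coactivator TAZ that binds PAX8 and NKX2-1, was at 13.8 ± 0.555 FPKM after si-circ_0000839 and 14.1 ± 1.13 in NC (adjusted p = 0.918). PARP1, which binds PAX8, had the smallest p, at 53.5 ± 1.71 against 48.2 ± 0.704 FPKM with no overlap (log2 change 0.15, SE 0.06, adjusted p = 0.380).

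The deiodinase genes were near 0, and the genes that serve them ranged from under the minimum to well expressed. DIO1 had 1 to 11 reads per library and DIO3, which inactivates the hormone, had 0. Among the genes of selenocysteine synthesis and insertion, SEPSECS was at 0.238 and PSTK at 0.555 FPKM over the 6 libraries, while EEFSEC was at 10.7 and SEPHS2 at 29.9 FPKM. EEFSEC shares positions with RUVBL1, at 18.9 FPKM, on the other strand, so its reads are uncertain. Of the 12 deiodinase, selenocysteine and DIO2 turnover genes 7 were tested and 0 passed. WSB1, part of the ubiquitin ligase that marks DIO2 for degradation, had the smallest p, at 4.74 ± 0.380 FPKM after si-circ_0000839 against 5.86 ± 0.564 in NC with no overlap (log2 change -0.26, SE 0.09, adjusted p = 0.272).

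Of 18 genes of thyroid hormone transport and nuclear response 11 were tested and 0 passed, with a median log2 change of 0.04. The receptors were both present, THRA at 3.80 ± 0.213 FPKM after si-circ_0000839 against 3.14 ± 0.427 in NC (adjusted p = 0.366) and THRB at 2.07 ± 0.141 against 2.06 ± 0.467 (adjusted p = 0.973). THRA shares positions on the other strand with NR1D1, at 2.22 and 1.93 FPKM after si-circ_0000839 and in NC, and with MED24, at 14.3 and 13.4 FPKM, so its reads are uncertain. CRYM, a cytosolic hormone-binding protein, had the smallest p, at 0.865 ± 0.0694 against 1.30 ± 0.198 FPKM with no overlap (log2 change -0.30, SE 0.10, adjusted p = 0.244).

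Over all pathway lists and the list of nearest paralogs, 59 of 104 genes were tested and 0 passed in limma, where 0.384% of all tested genes did, 14 higher and 27 lower (32 and 23 after rescaling to TPM, 29 and 34 after quantile normalization). At an unadjusted p under 0.05 there were 9 of the 59, against 12.6% of all tested genes. Groups did not overlap for 11 of the 59, or 18.6%, close to the 18.1% of all tested genes. A log2 change above 0 was seen in 41 of the 59, and in 51.8% of all tested genes. The median log2 change was 0.03 for the 59 and 0.0057 for all tested genes, and this difference was not tested. Among paralogs SLC5A6, the vitamin transporter related to SLC5A5, had the smallest p, at 15.5 ± 1.09 against 12.5 ± 1.09 FPKM (log2 change 0.29, SE 0.08, adjusted p = 0.194), but it shares positions with ATRAID, at 46.6 and 50.3 FPKM, on the other strand. Of the 16 genes of the thyroid differentiation score, a set used to grade thyroid cancers, 5 were tested (PAX8, FOXE1, GLIS3, THRA and THRB), 5 had 0 reads and 6 had reads under the minimum.

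**Figure D4:**
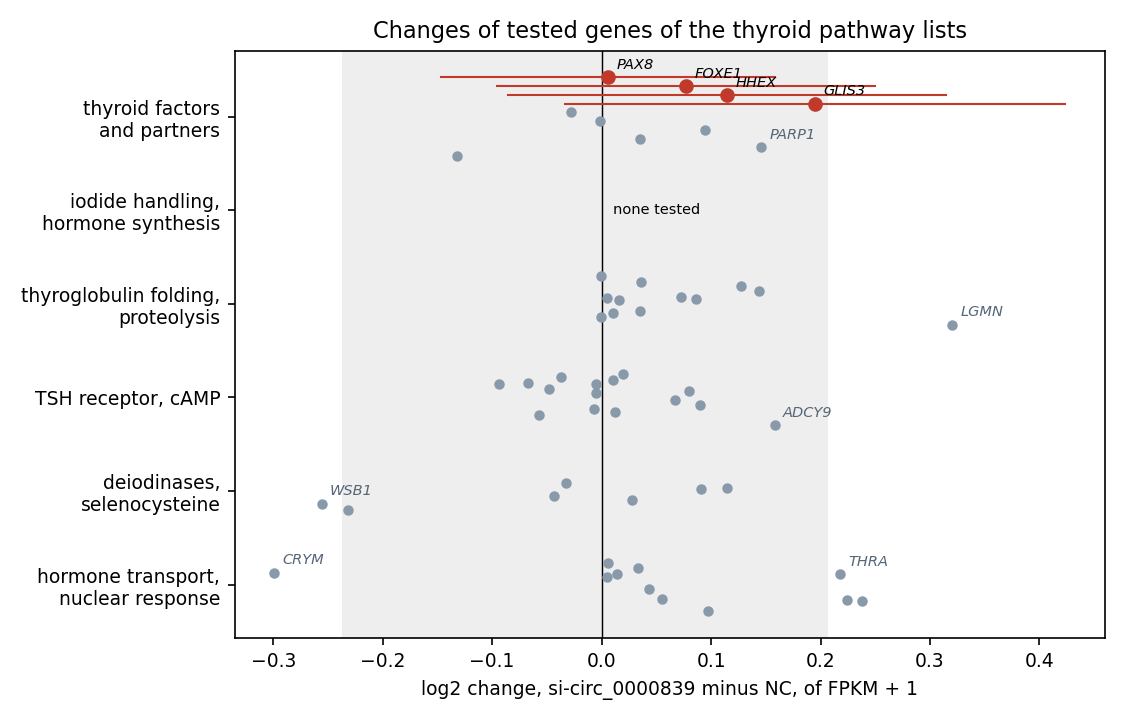
Log2 change of FPKM + 1, si-circ_0000839 minus NC, for the tested genes of 6 thyroid pathway lists. Large points with lines are PAX8, FOXE1, HHEX and GLIS3 with 95% intervals, all of which include 0, and the grey band runs from the 5th to the 95th percentile of all tested genes (-0.24 to 0.21); LGMN, at 0.32, lies outside it.

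PAX8-AS1, a non-coding gene on the opposite strand that shares 60585 bases of its span with PAX8, had a level of 1.67 ± 0.0754 FPKM after si-circ_0000839, against 1.97 ± 0.333 FPKM for NC (log2 change -0.15, adjusted p = 0.587). The deposited level of PAX8 was far above it in every library.

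The genes whose course over the 6 libraries was nearest to each factor were found among 9665 protein-coding genes by the root mean square difference of their log2(FPKM + 1) deviations. For PAX8 they were PABPN1, RANBP10 and GNG4, at 0.0135 to 0.0147, against a median of 0.102 over all candidates. For FOXE1 they were ANKRD11, KANK2 and RPS6KA2, at 0.0161 to 0.0242. HHEX was nearest to EEF2KMT, C2orf68 and FAM72B, at 0.0318 to 0.0351, and GLIS3 to EGFR, FNDC3B and WNK1, at 0.0215 to 0.0262 (median 0.172). EGFR shared with GLIS3 a low value in NC replicate 2, at 5.54 FPKM against 7.03 to 8.07 in the other libraries. The measure rests on 6 libraries and describes the course of the values only.

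Markers of other cell types were checked beside the thyroid label. Of 5 C cell markers 0 reached 1 FPKM and CALCA, which encodes calcitonin, had 0 reads; all 3 parathyroid markers had 0. Of 5 leukocyte markers 3 had 0 reads, PTPRC and CD3E among them, and CD68 had 0 to 2 per library. LCP1, an actin-bundling protein of leukocytes that many cancer cell lines also express, was at 216 ± 9.32 FPKM after si-circ_0000839 and 210.4 ± 3.01 in NC (adjusted p = 0.864). Of 5 fibroblast markers, COL1A2 and DCN had at most 1 read per library. LUM, an extracellular matrix proteoglycan, was at 15.8 ± 2.40 FPKM after si-circ_0000839 against 22.5 ± 2.53 in NC with no overlap (log2 change -0.49, SE 0.11, adjusted p = 0.108), whereas COL1A1 and PDGFRB, under the minimum, were at 0.565 and 0.197 against 0.370 and 0.136 FPKM, also with no overlap. The summed level of the 5 fibroblast markers was 14.5 to 19.1 FPKM after si-circ_0000839 and 20.1 to 25.2 in NC, and its part in the results was not tested. The 4 endothelial markers summed to at most 0.153 FPKM. The 4 lung alveolar markers, checked since NKX2-1 also marks lung, summed to at most 0.0827 FPKM. Among markers of kidney and Müllerian epithelium, checked since PAX8 marks these tissues too, LHX1 was at 5.02 ± 0.482 FPKM after si-circ_0000839 and 4.50 ± 0.577 in NC (adjusted p = 0.616), while WT1 had 1 read in all, EMX2 0, and CDH16, a cadherin of kidney and thyroid, 32 to 57 reads per library. The part of these markers in the results was not tested. The keratins KRT7, KRT8 and KRT18 were at 101, 190 and 101 FPKM after si-circ_0000839. Of the other epithelial markers, CDH1 had 0 reads, EPCAM lay between 0.606 and 1.04 FPKM, and KRT19 had reads under the minimum. The 6 epithelial markers summed to 378 to 419 FPKM after si-circ_0000839 and 393 to 469 in NC. Of these 6, 3 were tested and 0 passed, with a median log2 change of -0.126. Of the defining thyroid markers, then, PAX8 and FOXE1 were present and HHEX was present at a low level, 2.78 FPKM over the 6 libraries. TG was at a trace, and NKX2-1, TSHR and SLC5A5 had 0 reads in the deposited values.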

How the data were processed

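The authors deposited FPKM values for 58735 genes in 6 libraries, with gene lengths and coordinates, per the file headers. Per the submitters' processing notes the tools included HISAT2 2.0.5 and, for counting, featureCounts 1.5.0-p3. The sources used here do not give the strand setting, build or filters. Coordinates of all 58735 genes were those of GENCODE 29 (GRCh38).

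Reads per gene were recovered from FPKM and gene length, since 100% of values above 0 came out whole (tolerance 0.01 reads). The library totals implied by the FPKM values differed from the recovered reads. They were 0.958 times these in NC replicate 2, 0.971 in si-circ_0000839 replicate 1 and 1.00 to 1.02 in the other libraries. The sources used here do not explain the difference. Low depth limits genes of few reads, and limits of 3 reads cover counting error only. Genes averaging 1 FPKM or more were compared on log2(FPKM + 1) by limma 3.58.1 (R 4.3.3, variance prior with a trend, two-sided), with group as the only term, and called at a Benjamini-Hochberg adjusted p under 0.05 over all tested genes. Changes on this scale understate those of low genes. The fit was also run on simulated data without base composition differences between libraries, which does not show its performance on these data. Alternatives were other pseudocounts, filters and scalings, a replicate block, voom on recovered reads, protein-coding genes alone, libraries left out and, added after seeing the data, removal of a GC and length trend.

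All 9 members are named, with the tested gene of smallest p per list, partners and paralogs by level, overlapping genes (exon overlap from GENCODE 29) and the 3 nearest courses; other genes (factors ranked above PAX8 or FOXE1, NKX2-5, CALR, HSPA5, CTSB, markers and further list genes) were chosen after their values were seen. Members and lists were chosen with earlier results of these data known. Some genes of the lists are not reported here by name.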

Additional observations from a re-analysis of the deposited data

How the results depend on the processing

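In all 19 alternatives 0 of the thyroid members passed the threshold. HHEX and GLIS3 kept an upward direction wherever they were fitted, at 0.06 to 0.16 and 0.08 to 0.33 on the log2 scale. PAX8, near 0, was -0.0527 with the GC and length trend removed and -0.0165 with both si-circ_0000839 replicate 1 and NC replicate 2 left out; FOXE1 was -0.0187 in the latter. Leaving out single libraries gave -0.0339 to 0.0441 for PAX8, with values below 0 on omission of si-circ_0000839 replicate 1 (-0.0339) or NC replicate 1 (-0.00946). LGMN was the 1 list gene called in any alternative (protein-coding genes alone and the trend removed). The minimum of 5 FPKM gave no value for HHEX and GLIS3. TG, at 16 to 39 reads per library, is limited by depth.

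The 41 calls over all genes became 4 without a filter, 68 at a minimum of 5 FPKM, 63 after quantile normalization, 118 and 104 in voom (same genes; at least 3 reads), 125 in protein-coding genes alone, 26 with the 2 libraries left out, 220 with the trend removed (111 higher, 109 lower) and 20 to 38 with single libraries left out. The cause was not tested, beyond that fewer samples or another set of genes were fitted. With the replicate number as a block 35 genes passed and no member did. The same-numbered libraries correlated at -0.15, -0.29 and 0.15 in their deviations from the group means. The value for si-circ_0000839 replicate 1 with NC replicate 2 was 0.35. Deviations from a mean of 3 libraries are tied to each other, so these values cannot decide whether the numbers pair the samples.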
